A study of Rattus norvegicus with 102 samples.

Results

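This report follows 7 genes of the myeloid immune-receptor system, namely Trem2, Tyrobp, Fcer1g, Fcgr2b, Fcgr2a, Fcgr3a and Fcgr1a, in the hippocampus of young and aged rats. They were chosen by symbol and occupied 8 gene rows, since Fcgr2a was listed under 2 identifiers, out of 26284 rows in the Illumina table, 26341 in the Ion Proton table and 26284 in the WT table. Of the 8 rows, 7 passed the filter on low values (a mean of at least 10) in every subfield of the Illumina table, 8 did so in the Ion Proton table and 6 in the WT table. CA1, CA3 and the dentate gyrus (DG) had been dissected from 34 male Fischer 344 rats, each giving 1 library per subfield and table. The groups were 10 young rats of 5 to 6 months, 12 aged unimpaired rats (title suffix OG) and 12 aged impaired rats (suffix OB), the aged rats being 17 to 22 months old and divided by their memory of a hidden platform in a water maze. All rats were untreated as far as the labels say, and all had been trained in the maze. The tissue was a whole dissected subfield, so neurons, glia, vessels and attached membranes contributed to each value.

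TREM2 is a lipid-sensing receptor of microglia, the resident macrophages of brain tissue. It has no signalling tail of its own and pairs with the adaptor DAP12, encoded by Tyrobp, whose ITAM motif recruits the kinase SYK. Activating Fc gamma receptors, which bind the constant part of IgG antibodies, signal the same way through the gamma chain encoded by Fcer1g. Fcgr2b encodes the inhibitory member of the Fc gamma family, which carries an ITIM motif and opposes the activating receptors. In microglia this system is known for its part in phagocytosis and in the response to amyloid, myelin debris and immune complexes.

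By identifier, Trem2 (ENSRNOG00000013578) was on chromosome 9, Tyrobp (ENSRNOG00000020845) on chromosome 1 and Fcgr1a (ENSRNOG00000021199) on chromosome 2. Fcer1g (ENSRNOG00000024159), Fcgr3a (ENSRNOG00000024382), Fcgr2b (ENSRNOG00000046452) and both Fcgr2a rows (ENSRNOG00000003138 and ENSRNOG00000049422) were on chromosome 13. The tables gave no start or end positions. Promoters were taken from a RefSeq table of build GRCr8, another build than the rn5 genome of the counts, and ran from 250 bases before to 50 bases after a gene's start. It held entries for 3 of the 7 genes (4 promoters). Those of Trem2 and Fcgr3a are shown, as a receptor of the DAP12 branch and one of the gamma chain branch. Capitals mark GAGGAA or its reverse complement TTCCTC, the core motif of the myeloid transcription factor PU.1, searched on both strands. The Trem2 promoter lay on the minus strand at chr9:20151730-20152029 and the Fcgr3a promoter on the plus strand at chr13:85782386-85782685.
Trem2: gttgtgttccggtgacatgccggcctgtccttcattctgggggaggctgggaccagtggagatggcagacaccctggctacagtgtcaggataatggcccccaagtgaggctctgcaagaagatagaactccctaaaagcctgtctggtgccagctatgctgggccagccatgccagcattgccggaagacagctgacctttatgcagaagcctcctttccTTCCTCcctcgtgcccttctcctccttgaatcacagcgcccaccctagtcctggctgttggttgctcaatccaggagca
Fcgr3a: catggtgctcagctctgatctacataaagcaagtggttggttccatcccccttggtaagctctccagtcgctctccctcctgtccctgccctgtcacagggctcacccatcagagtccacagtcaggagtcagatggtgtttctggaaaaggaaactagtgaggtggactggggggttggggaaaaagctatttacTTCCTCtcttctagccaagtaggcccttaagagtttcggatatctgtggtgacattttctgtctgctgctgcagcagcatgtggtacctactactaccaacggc
Each held the 6-letter motif once. Of the 2 Fcgr2a promoters 1 held it 2 times and the other 0 times, so that 3 of the 4 member promoters had a match. It occurred in 27.6% of the 33469 promoters of the same length (9239 of them), so a match is common. The longer GAGGAAGT, which contains the first motif, was in 1 of the 4 member promoters and in 2.4% of all promoters (810).

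Illumina libraries held 3.25 to 42.8 M reads on genes (median 10.7 M), Ion Proton libraries 4.47 to 21.4 M (9.74 M) and WT libraries 3.54 to 20.6 M (8.07 M). All Illumina libraries of rats R1922, R1923, R1930, R1931, R9780, R9781 and R9782 held 28.0 M or more, and all others at most 23.7 M. Of these rats, R1922, R1923 and R9780 were young. No fit took this split by depth as a covariate. By the marker genes of CA1 pyramidal, CA2 and CA3 pyramidal and dentate granule cells, 13 libraries lay nearer to another subfield than to their label in both poly-A tables. They were 9 labelled CA3, 3 labelled DG and 1 labelled CA1, and came from 10 rats, all with numbers from 9000 up. Each gene's age change is also given without them and the subfield differences without those 10 rats, while the contrasts of each aged group with young rats and the interactions were not recomputed that way. Of 21 markers of homeostatic microglia, all were in the table, and Siglech was at 0 in all libraries of some groups. Below, values are reads normalised by size factor in the Illumina table unless another table is named. For each group the lowest, the median and the highest library are given, followed by the mean with its SD. Differences are given as log2 changes after 1 was added to each value.

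The first question was whether these genes differ with age within a subfield. Trem2, Tyrobp, Fcer1g and Fcgr2b rose in aged rats (n = 24) against young rats (n = 10) in CA1, and Trem2 and Fcgr2b also rose in DG, all by limma with an adjusted p-value under 0.05. Thus 4 of 7 tested rows were called higher in CA1, where 0.338% of all 14191 tested genes were, and 2 of 7 in DG, against 0.285% of 14019. In CA3 limma called none of the 7 rows and 0.0% of all 14246 genes. An unadjusted limma p-value under 0.05 was held there by 5 of the 7 rows and by 471 of the 14246 genes. edgeR on the recovered reads also called 0 of the 7 in CA3, and DESeq2 called 1 (Fcgr2b), where these tools called 9 and 20 of the 14246 genes. In CA1 and DG, 5 and 6 of the rows had an unadjusted p-value under 0.05, as had 873 of 14191 and 729 of 14019 genes. No member fell past the threshold. The median log2 change over the 7 rows was 0.43 in CA1, 0.31 in CA3 and 0.38 in DG, while over all tested genes it was -0.0045, -0.014 and -0.0015.

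A second reading asked whether a change also appeared on the other instrument, on which RNA of the same rats had been sequenced. A gene passed this retest when its unadjusted Illumina p-value was below 0.01 and its one-sided Ion Proton p-value, taken in that direction, was below 0.05. Higher in age were Trem2, Tyrobp and Fcgr2b in CA1 (3 of 7, against 0.692% of 13868 genes), Trem2, Fcer1g and Fcgr2b in CA3 (3 of 7, against 0.344% of 13942) and Trem2, Tyrobp, Fcer1g and Fcgr2b in DG (4 of 7, against 0.94% of 13728). Trem2 and Fcgr2b were retested in every subfield. The same rats stand behind both tables, so the retest bears on technical error only. In this tissue, a larger number of myeloid cells and more RNA per cell cannot be told apart for any of these changes.

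**Figure D1:**
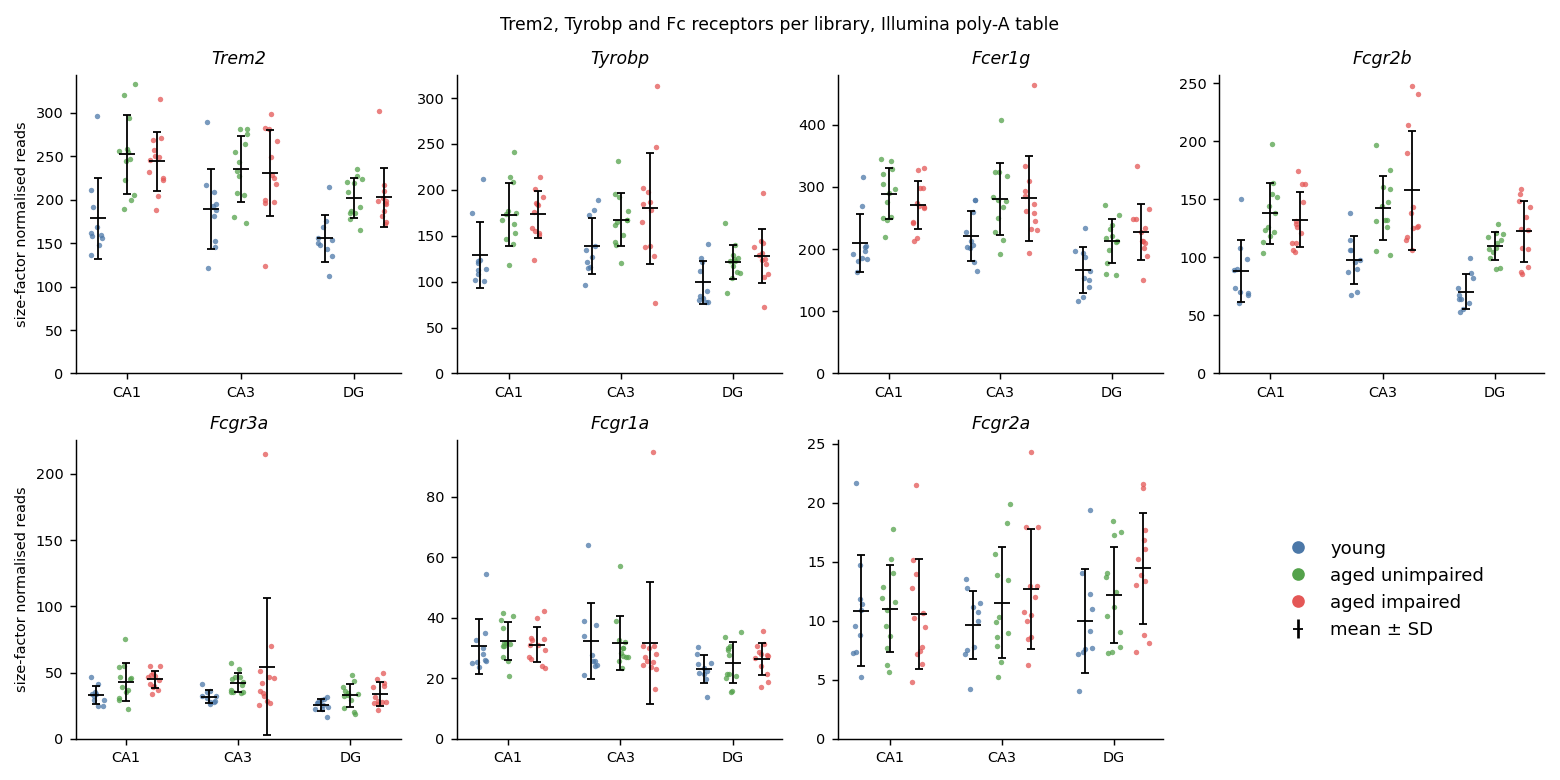
Normalised reads (y axis, linear from 0) of each gene in every Illumina library of CA1, CA3 and DG, coloured by group, with black bars for the mean ± SD of 10 young, 12 aged unimpaired and 12 aged impaired rats. The aged groups sit above the young for Trem2 and Fcgr2b with overlapping ranges, while the ratios of aged to young means are 1.04, 0.98 and 1.12 for Fcgr1a and 0.996, 1.26 and 1.33 for Fcgr2a (ENSRNOG00000049422) in CA1, CA3 and DG, and 1 aged impaired CA3 library reaches 215 for Fcgr3a.

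Trem2 encodes the receptor itself. In CA1 it ran from 137 through 160 to 296 in young (179 ± 46.6), from 189 through 251 to 333 in aged unimpaired (252 ± 45.6) and from 188 through 247 to 316 in aged impaired rats (244 ± 33.7). All 24 aged libraries exceeded the young median and 3 exceeded the highest young library. The log2 change was 0.49 (SE 0.094, limma adjusted p = 0.0057), a ratio of means of 1.39. The highest young library, that of rat R9780, stood apart from the next at 211, and without it the change was 0.58.

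In DG, Trem2 ran from 112 through 152 to 215 in young (156 ± 27.1), from 165 through 200 to 235 in unimpaired (202 ± 23.0) and from 172 through 197 to 302 in impaired rats (203 ± 34.1). Again all 24 aged libraries lay above the young median, and 7 above the young maximum. The change was 0.38 (SE 0.076, limma adjusted p = 0.010), with a ratio of 1.30. In CA3 the corresponding values were 121, 191 and 290 in young, 174, 239 and 282 in unimpaired and 123, 227 and 299 in impaired rats. Here the spread was wider, 21 aged libraries passed the young median and 1 the young maximum, and the change of 0.31 (SE 0.11) was not called. Trem2 lost its CA3 retest on leaving out any 1 of 23 of the 34 rats. Without the 13 libraries nearer to another subfield, Trem2 changed by 0.47 in CA1 (limma adjusted p = 0.0069), 0.34 in CA3, where it was no longer retested (unadjusted limma p = 0.011), and 0.35 in DG (adjusted p = 0.0093).

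The Ion Proton table gave Trem2 changes of 0.38 in CA1, 0.37 in CA3 and 0.57 in DG. The last was past the threshold in that table alone (limma adjusted p = 0.020). There, DG libraries ran from 76.5 through 122 to 147 in young rats, from 144 to 225 in unimpaired and from 116 through 168 to 315 in impaired rats. The WT table gave 0.36, 0.34 and 0.36, with no adjusted p-value under 0.05.

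Tyrobp encodes DAP12, the adaptor that carries the TREM2 signal. CA1 libraries ran from 101 through 117 to 212 in young (129 ± 36.0), from 118 through 170 to 241 in unimpaired (173 ± 34.3) and from 124 through 180 to 215 in impaired rats (173 ± 25.3). The 24 aged libraries all passed the young median and 3 passed the young maximum. The change was 0.44 (SE 0.10, limma adjusted p = 0.039). It stood close to the threshold, and leaving out any 1 of 19 of the 34 rats ended the call, with adjusted p-values of up to 0.13.

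In DG, Tyrobp stood at 77.9, 87.0 and 141 in young, 87.2, 123 and 163 in unimpaired and 72.4, 126 and 197 in impaired rats, a change of 0.33 (SE 0.11, limma adjusted p = 0.36). In CA3 it stood at 96.1, 131 and 189 in young, 121, 166 and 231 in unimpaired and 76.4, 182 and 314 in impaired rats, a change of 0.30 (SE 0.14). Both the lowest and the highest CA3 library belonged to impaired rats. The Ion Proton changes were 0.46, 0.56 and 0.55 in CA1, CA3 and DG. Leaving the 13 libraries out, Tyrobp changed by 0.42 in CA1 (limma adjusted p = 0.048), 0.44 in CA3, where it then passed the retest, and 0.29 in DG.

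Fcer1g encodes the gamma chain, the ITAM adaptor of the activating Fc receptors. CA1 libraries ran from 164 through 195 to 316 in young (210 ± 46.5), from 219 through 294 to 345 in unimpaired (289 ± 40.9) and from 213 through 269 to 331 in impaired rats (271 ± 38.3). All 24 aged libraries passed the young median and 6 the young maximum. The change was 0.43 (SE 0.085, limma adjusted p = 0.0096). This change did not pass the retest, since the Ion Proton table gave 0.18, with libraries from 59.4 to 378 in aged unimpaired rats alone.

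In DG, Fcer1g stood at 117, 159 and 234 in young, 158, 215 and 271 in unimpaired and 150, 220 and 333 in impaired rats. The change of 0.42 (SE 0.10, limma adjusted p = 0.062) missed the threshold in the Illumina table and passed the retest. Leaving out rat R2184, R2230, R2233, R9780 or R9881 brought it past the threshold. In CA3 it stood at 164, 210 and 280 in young, 193, 278 and 408 in unimpaired and 194, 267 and 463 in impaired rats, a change of 0.33 (SE 0.11, limma adjusted p = 0.68). The CA3 retest was lost without rat R2175. With the 13 libraries left out the changes were 0.41 in CA1 (limma adjusted p = 0.013), 0.40 in CA3 and 0.40 in DG (adjusted p = 0.068).

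Fcgr2b, the inhibitory receptor, had the highest log2 change of the 7 rows in all 3 subfields. In DG it ran from 52.7 through 65.5 to 99.3 in young (70.5 ± 14.8), from 89.7 through 110 to 129 in unimpaired (110 ± 12.1) and from 85.8 through 124 to 159 in impaired rats (122 ± 26.3). All 24 aged libraries passed the young median and 19 passed the young maximum, so that the groups overlapped in few libraries. The change was 0.72 (SE 0.098, limma adjusted p = 6.9e-05), a ratio of means of 1.65.

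CA1 values of Fcgr2b ran from 60.7 through 81.4 to 150 in young (87.9 ± 26.7), from 104 through 132 to 198 in unimpaired (138 ± 26.2) and from 105 through 127 to 174 in impaired rats (133 ± 23.9). The single young library at 150, again rat R9780, stood above a next value of 108. The change was 0.65 (SE 0.11, limma adjusted p = 0.0025), and 0.74 without that library. In CA3 the values were 67.6, 97.1 and 139 in young, 102.4, 138 and 196 in unimpaired and 106, 133 and 248 in impaired rats, where each of the 24 aged libraries exceeded the young median and 11 the young maximum. The CA3 change of 0.60 (SE 0.13, limma adjusted p = 0.080) was not called, but was without rat R9780 (adjusted p = 0.031).

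Fcgr2b also rose in the WT table, by 0.61 in CA1 (limma adjusted p = 0.024) and 0.83 in DG (adjusted p = 0.0057). Its WT change in CA3 was 0.55 and was not called. On the Ion Proton CA1 gave 0.50, CA3 0.59 and DG 0.50, none past the threshold in that table alone. By number series of the rats, the only grouping of animals that the labels carry beside their design, the Illumina change in CA1 was 0.66 below 9000 (18 rats) and 0.65 from 9000 up (16 rats). For CA3 the pair was 0.69 and 0.49, and for DG 0.81 and 0.64. For Trem2 these pairs were 0.47 and 0.52, 0.46 and 0.17, and 0.42 and 0.36. Without the 13 libraries that lay nearer to another subfield, Fcgr2b changed by 0.62, 0.68 and 0.70 in CA1, CA3 and DG.

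**Figure D2:**
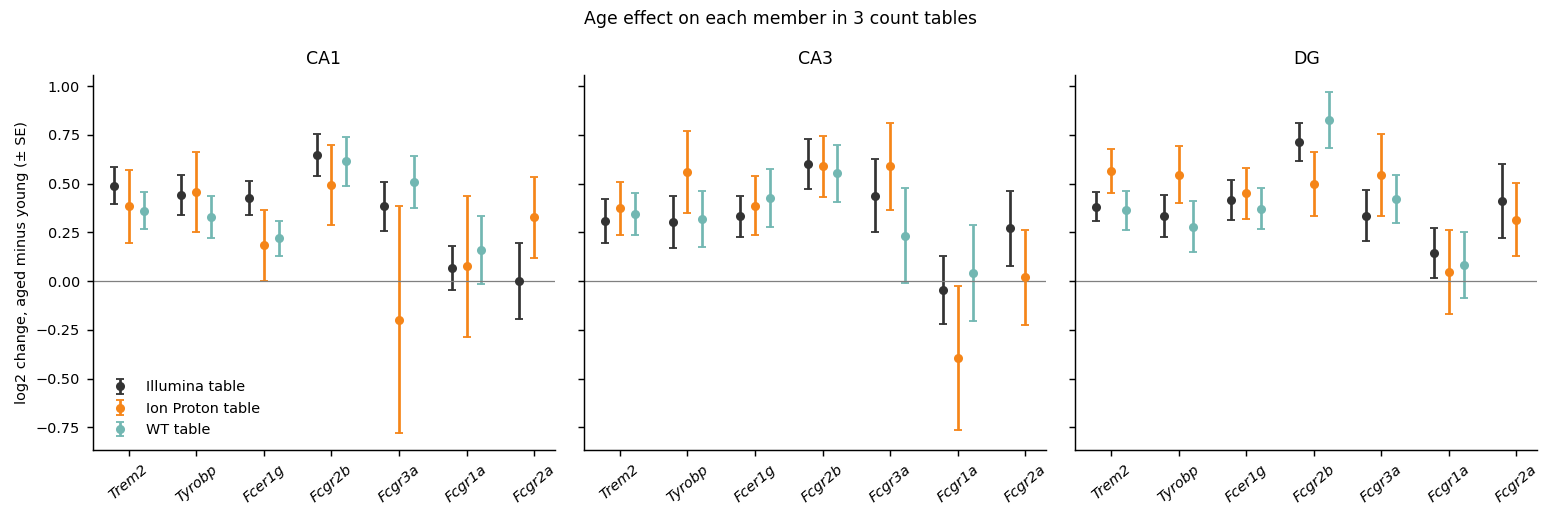
Log2 change of aged against young (y axis, points with SE bars) for each gene in CA1, CA3 and DG, in the Illumina, Ion Proton and WT tables. Fcgr2b lies highest in the Illumina table in every panel (0.65, 0.60 and 0.72), Fcgr1a lies near 0 in the Illumina table, and the Ion Proton value of Fcgr3a in CA1 is negative with a wide SE (-0.20, SE 0.58).

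Fcgr3a encodes a low-affinity activating receptor. In CA1 it ran from 24.7 through 33.1 to 46.4 in young (33.1 ± 6.82), from 22.7 through 42 to 75.6 in unimpaired (43.0 ± 14.2) and from 33.9 through 45.6 to 55.0 in impaired rats (44.8 ± 6.70). Of 24 aged libraries, 21 exceeded the young median and 10 the young maximum. The change of 0.38 (SE 0.13, limma adjusted p = 0.33) was not called, nor were those of 0.44 (SE 0.19) in CA3 and 0.34 (SE 0.13) in DG. In the Ion Proton table its CA1 value was -0.20, and the aged CA1 libraries of rats R2230, R2232 and R9874 had 0 reads for Fcgr3a there. By the means of that table the aged CA1 libraries were at 1.27 times the young, with 18 of 24 above the young median and 15 above the young maximum, so the sign differs between the log2 scale and the means. Its Ion Proton CA3 and DG values were 0.59 and 0.55. Without the 13 libraries the Illumina changes of Fcgr3a were 0.35, 0.51 and 0.31, none called.

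Fcgr1a encodes the high-affinity activating receptor. It stood at 23.8, 27.1 and 54.4 in young, 20.7, 31.4 and 41.7 in unimpaired and 23.5, 31.0 and 42.2 in impaired rats in CA1. No aged CA1 library exceeded the young maximum, which belonged to rat R2175, and the summed leptomeningeal (43288) and border macrophage markers (619) of that library were also the highest among young CA1 libraries. The log2 change was 0.07 (SE 0.11, limma adjusted p = 0.98) in CA1, CA3 gave -0.04 and DG 0.14, none past the threshold. The Ion Proton changes were 0.08 in CA1, -0.39 (SE 0.37) in CA3 and 0.05 in DG, with 9 of 24 aged CA3 libraries above the young median and 1 at 0 reads. In CA3 of the Illumina table the sign turned to 0.07 without the young library of rat R9876. That library also held the highest summed leptomeningeal markers of young CA3 libraries (151310 normalised reads, against a median of 3867) and the highest border macrophage markers (2484, against 203), and its part in the values was not tested further. Without it, Fcgr2b changed by 0.60 and Fcer1g by 0.37 in CA3. Without the 13 libraries nearer to another subfield Fcgr1a changed by 0.05, 0.08 and 0.18 in CA1, CA3 and DG.

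Fcgr2a, a further low-affinity IgG receptor, could not be read as 1 gene. Over all Illumina libraries, the row ENSRNOG00000049422 held 1345 reads in all and the row ENSRNOG00000003138 held 61. On the Ion Proton the rows held 3526 and 3230 reads, close to equal. In the WT table they held 602 and 21. ENSRNOG00000003138 was at 0 in 65 Illumina libraries and at 3 or fewer reads in 98, so it was not tested there. Fcgr2a, Fcgr2b and Fcgr3a have closely similar sequences on 1 chromosome, and how reads that match more than 1 of them were counted is not given in the sources used here, so their split is uncertain.

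The tested Fcgr2a row stood at 5.20, 10.2 and 21.7 in young, 5.69, 11.2 and 17.8 in unimpaired and 4.77, 9.88 and 21.5 in impaired rats in CA1, close to the filter. Its log2 changes with age were 0.00 (SE 0.19) in CA1, 0.27 in CA3 and 0.41 (SE 0.19, limma adjusted p = 0.87) in DG, where 19 of 24 aged libraries exceeded the young median. The other row, in the Ion Proton table, changed by 0.54 in CA1, with an unadjusted limma p-value of 0.0061 and an adjusted one of 0.93. The tested Illumina row of Fcgr2a, without the 13 libraries, changed by 0.01, 0.33 and 0.45.

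**Figure D3:**
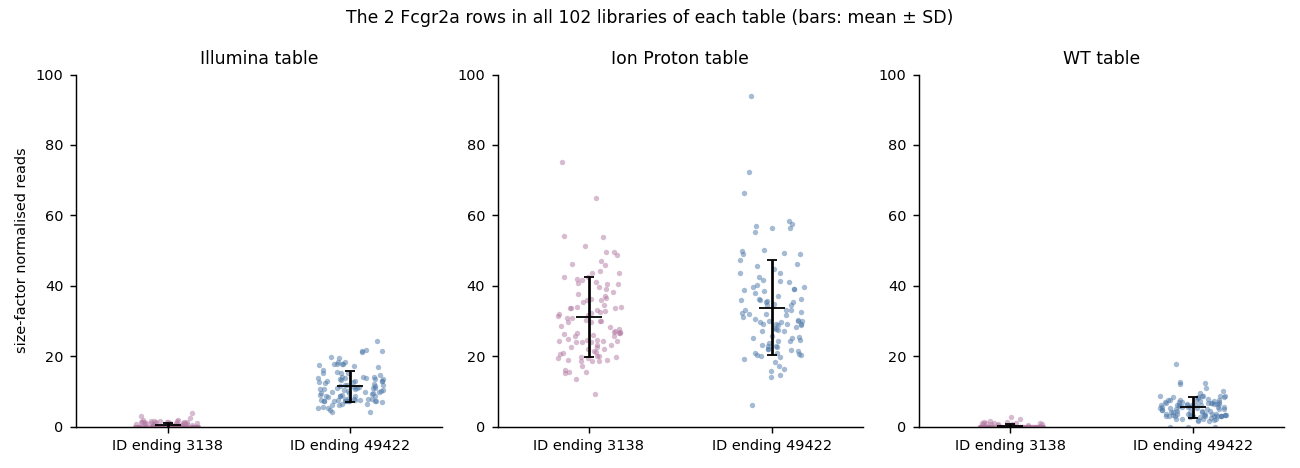
Normalised reads (y axis) of the Fcgr2a rows ENSRNOG00000003138 and ENSRNOG00000049422 in every library of the Illumina, Ion Proton and WT tables, with bars for the mean ± SD. The first row sits at or near 0 in the Illumina and WT tables and at a mean of 31.1 in the Ion Proton table, beside 33.8 for the second row.

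The next question was whether the change with age was seen in unimpaired and in impaired rats. Both contrasts share the 10 young libraries, so their values are set side by side and are not independent. In CA1, unimpaired rats gave 3 called rows (Trem2 0.51, Fcer1g 0.47 and Fcgr2b 0.68, against 0.169% of all genes) and impaired rats 1 (Fcgr2b 0.62, against 0.12%), with Trem2 at 0.47 and Fcer1g at 0.38 in the latter. edgeR called 0 members in CA1 in either contrast (and 2 and 6 of all genes), while DESeq2 called 3 and 1 (33 and 17 of all genes). In DG, unimpaired rats gave 1 (Fcgr2b 0.65, against 0.0999%) and impaired rats 2 (Trem2 0.38, limma adjusted p = 0.048, and Fcgr2b 0.78, against 0.214%), where edgeR gave 1 and 1 (12 and 27 of all 14019 genes) and DESeq2 1 and 3 (23 and 50). In CA3 limma called no member and 0.0% of all genes in either contrast. An unadjusted limma p-value under 0.05 was held by 3 and 5 rows, and by 411 and 437 of 14246 genes. There edgeR called 0 in both (0 and 0 of all genes) and DESeq2 called 0 and 1 (2 and 12 of 14246).

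These counts rested on few libraries. The 3 calls in CA1 of unimpaired rats fell to 0 without young rat R2221 and rose to 4 without rat R9780 or R2232. The call in CA1 of impaired rats was lost without any 1 of 9 rats and became 4 without rat R9780. The Trem2 call in DG of impaired rats was lost without any 1 of 29 of the 34 rats.

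Impaired and unimpaired rats were then compared with each other. None of the 7 rows was called in CA1, CA3 or DG by limma, edgeR or DESeq2, and by limma none reached an unadjusted p-value of 0.05 with the Illumina values. Over all genes, 0.0% were called by limma in each subfield. edgeR called 0 genes in each, and DESeq2 called 6 of 14205 in CA1 and 0 in CA3 and DG. None of the 7 rows was retested, against 0.635% of all genes in CA1, 0.0216% in CA3 and 0.124% in DG. Leaving Fcgr2a out, the 6 rows differed by -0.09 to 0.11 in CA1 on the log2 scale, with 95% intervals that reached from -0.29 to 0.41, by -0.10 to 0.10 in CA3 with intervals from -0.50 to 0.57 and by 0.00 to 0.14 in DG with intervals from -0.27 to 0.39. Trem2 in particular differed by -0.04 (SE 0.091) in CA1, -0.05 (SE 0.12) in CA3 and 0.00 (SE 0.076) in DG, where its 95% interval ran from -0.16 to 0.16. In the WT table Tyrobp in DG was higher in impaired rats by 0.28 (means of 70.3 and 57.7, unadjusted limma p = 0.043), and with an adjusted p-value of 0.62 it was not called. The other members tested in that table had unadjusted p-values above 0.05 in each subfield. No member was called or retested without the 13 libraries.

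Whether the age effect differed between subfields was tested as an interaction. No member passed it for any pair of subfields by limma, edgeR or DESeq2, none had an unadjusted limma p-value under 0.05, and 0.0% of all genes passed for each pair by limma. Of all 14179 genes, edgeR called 16 and DESeq2 19 between CA1 and CA3, and 0 and 8 between CA1 and DG. The smallest unadjusted p-value among the members was 0.13. Without Fcgr2a, the 95% intervals of these differences lay within -0.58 and 0.53. The fit behind them took the libraries of a rat as separate. The calls in CA1 and DG and their lack in CA3 are thus not shown to be a difference between subfields. The same held for the difference of impaired and unimpaired rats between subfields, for which no member passed by any of the 3 tools, as for 0.0% of all genes by limma, and none had an unadjusted limma p-value under 0.05.

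Across all rats, the genes were compared between the subfields themselves. By the Illumina values, 6 of 7 rows, all but Fcgr2a, were higher in CA1 than in DG, against 29.0% of all genes, and the same 6 were higher in CA3 than in DG, against 28.9%. Between CA1 and CA3 no member was called by limma, edgeR or DESeq2, while limma called 35.4% of all genes in either direction, and 0 of the 7 rows had an unadjusted limma p-value under 0.05. With the Ion Proton values 2 of 8 rows had one, both lower in CA1 and not called, namely Fcgr2b (-0.29, unadjusted limma p = 0.025) and Fcgr3a (-0.53, 0.037, with the 3 CA1 libraries at 0 reads). Tyrobp was lower there in CA1 than in CA3 in 25 of 34 rats (-0.25, unadjusted limma p = 0.072). Against DG, by the Illumina values, Tyrobp differed most, by 0.45 in CA1 and 0.46 in CA3. It was higher in CA1 than in DG of the same rat in 31 of 34 rats, and higher in CA3 than in DG in 29.

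For the other genes the CA1 and CA3 differences against DG were 0.26 and 0.21 for Trem2 (higher in 31 and 28 of 34 rats), 0.35 and 0.37 for Fcer1g (30 and 28), and 0.24 and 0.38 for Fcgr2b (25 and 29). Fcgr3a differed by 0.38 and 0.38 (26 and 29 rats) and Fcgr1a by 0.32 and 0.29 (27 and 21). Fcgr2a differed by -0.17 and -0.10, with 12 and 14 rats higher. A call with 1 direction on both instruments was left for 0 of 7 in CA1 against DG, where 13.4% of all genes met this, and 2 of 7 in CA3 against DG, where 14.1% did. edgeR and DESeq2 each gave 1 in CA1 against DG, beside 2095 and 2326 of 13907 genes higher in CA1, and DESeq2 gave 4 in CA3 against DG, beside 2610 genes higher in CA3. The 2 from limma were Tyrobp (Ion Proton 0.38, limma adjusted p = 0.024) and Fcer1g (0.28, adjusted p = 0.033). With the rat as a replicate block, Fcgr2b joined them (Ion Proton 0.31, adjusted p = 0.022, against 0.056 without the block). With the Ion Proton values none of the members was called between CA1 and DG by limma, and 0 had an unadjusted p-value under 0.05. The WT values gave 4 of 6 rows called higher in CA1 than in DG and 5 of 6 higher in CA3 than in DG. Beside these stood 3207 and 3453 of 13655 genes. Without the rats that had a library nearer to another subfield, 5 rows were called higher in CA1 than in DG, Fcgr2b being lost (0.27, limma adjusted p = 0.056), and 6 higher in CA3 than in DG, beside 3882 and 4396 of 14144 genes. Those called on both instruments became 0 and 1, beside 1308 and 1754 of 13866 genes. That 1 was Fcgr2b (0.49, and 0.46 with the Ion Proton values, adjusted p = 0.019), and Tyrobp no longer passed there (Ion Proton 0.38, adjusted p = 0.077). The Illumina differences of CA1 and of CA3 against DG were then 0.29 and 0.24 for Trem2, 0.46 and 0.50 for Tyrobp, 0.36 and 0.37 for Fcer1g, 0.32 and 0.42 for Fcgr3a, 0.29 and 0.26 for Fcgr1a and -0.28 and -0.07 for Fcgr2a.

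Genes that varied most like each member were looked up over the Illumina libraries (34 rats, 3 subfields), as Pearson correlations of log2 values, which share library depth, subfield and age and are given as descriptions. Among the genes that Trem2 varied most like were Ctss (cathepsin S, r = 0.86), Npc2 (a lysosomal cholesterol carrier, 0.83), P2ry12 (the purinergic receptor of microglia, 0.79) and S100b (0.78). In the Ion Proton table these correlations were 0.59, 0.74, 0.29 and 0.62. Tyrobp varied most like Tmem176b (0.92), Npc2 (0.92) and Tmem176a (0.88), and Fcer1g like Tmem176a (0.90), Npc2 (0.88) and Laptm5 (0.88). Fcgr2b varied most like the complement component C3 (0.83), the MHC class II chaperone Cd74 (0.82) and Cd4 (0.82). Fcgr3a varied most like Pld4 (0.75), Anxa3 (0.74) and C1qa (0.74), and Fcgr1a like C2 (0.74), Ptpn6 (0.67) and Arpc1b (0.66). The highest values for Fcgr2a were 0.48 with Mmel1, 0.47 with Grin1 and 0.46 with Adam11, of which Grin1 encodes a subunit of the neuronal NMDA receptor. Several of these likenesses were much lower in the Ion Proton table, namely 0.083 for Fcgr3a with Anxa3, 0.19 for Fcgr1a with Ptpn6, 0.26 for Fcgr2b with Cd4 and 0.060 for Fcgr2a with Mmel1, and none was computed there for C2. The other Ion Proton values were 0.57 to 0.74 for Tyrobp and Fcer1g, 0.56 and 0.60 for Fcgr2b with C3 and Cd74, 0.45 and 0.63 for Fcgr3a with Pld4 and C1qa, 0.65 for Fcgr1a with Arpc1b, and 0.49 and 0.23 for Fcgr2a with Grin1 and Adam11.

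Among the members, the adaptors Tyrobp and Fcer1g varied together (r = 0.84 over the same libraries, 0.73 after removal of group means). In the Ion Proton table these values were 0.58 and 0.47. By the Illumina values Trem2 followed Tyrobp at 0.74 and Fcer1g at 0.76, but Fcgr1a at 0.25. Fcgr2a followed the others at -0.02 to 0.20. Between the poly-A tables, the same gene in the same rat and subfield correlated at 0.24 for Fcgr2a, 0.25 for Fcgr3a, 0.43 for Fcgr1a, 0.48 for Trem2 and 0.58 for Tyrobp. For Fcgr2b and Fcer1g it was 0.60. After removal of group means the values ran from 0.21 (Fcgr3a) to 0.52 (Fcer1g), with Trem2 at 0.29.

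Other genes of the pathway were taken from fixed lists. Of 22 receptors that pair with DAP12 or share its signalling, 7 were tested in CA1 and 7 of these were higher in aged rats, with a median log2 change of 0.23, but 2 were called. They were Clec5a, a DAP12-coupled lectin (1.22, limma adjusted p = 0.039), and Cd33, a sialic acid-binding inhibitory receptor (0.45, adjusted p = 0.0032). In DG 1 of 6 was called, again Cd33 (0.39, adjusted p = 0.026), and in CA3 none of 7 (median 0.20). Of 38 ITAM signalling genes 36 were tested, and none was called by limma in any subfield, while 3, 2 and 3 were retested as higher in CA1, CA3 and DG. The kinase Syk stood at 0.31, 0.21 and 0.21, the phospholipase Plcg2 at 0.20, 0.20 and 0.38 and the Src-family kinase Fgr at 0.42, 0.39 and 0.51. Fgr was retested in CA1 and DG and Plcg2 in DG. The phosphatases Inpp5d (0.18, 0.25 and 0.18) and Ptpn6 (0.22, 0.19 and 0.16), which limit this signalling, were not called.

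Genes of TREM2 ligands and shedding gave no call among 8, 8 and 7 tested, and Apoe, a TREM2 ligand, changed by 0.13, 0.02 and 0.11. Of 14 other Fc receptor genes, 3 were tested and none called. Fcrl2 was retested in CA3 (0.61) and DG (0.45), and Fcgrt, the neonatal Fc receptor, stood at 0.07, -0.15 and 0.06. Genes of disease-associated microglia, a state that depends on TREM2 in mouse models, had 18 of 28 tested, of which 2 were called higher in CA1, 0 in CA3 and 3 in DG. In CA1 these were Ctsz (cathepsin Z, 0.52, limma adjusted p = 5.1e-04) and Gpnmb (0.63, adjusted p = 0.019), and in DG Ctsz (0.51, adjusted p = 0.0084), Gpnmb (0.60, adjusted p = 0.026) and Cd68 (0.94, adjusted p = 0.0021). Spp1 stood at 0.14, -0.22 and 0.14, not called, and Clec7a, Cst7 and Itgax were below the filter. The list medians were 0.15, 0.03 and 0.13, below those of the 7 member rows. Myeloid transcription factors (16 of 17 tested) gave no call, 2, 0 and 5 retested genes, and medians of 0.14, 0.14 and 0.16.

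**Figure D4:**
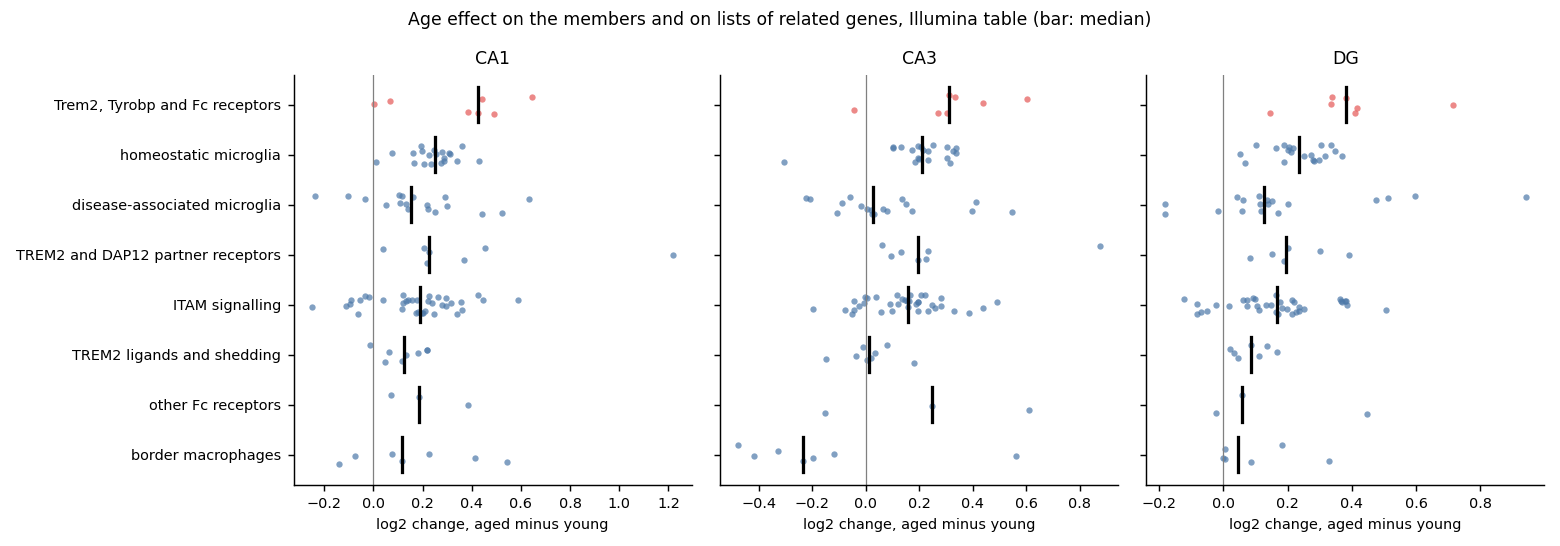
Log2 change of aged against young (x axis) of every tested gene of the members and of 7 related lists (rows) in CA1, CA3 and DG of the Illumina table, with a black bar at each list's median. The members' medians (0.43, 0.31 and 0.38) lie to the right of those of homeostatic microglia (0.25, 0.21 and 0.23) and disease-associated microglia (0.15, 0.03 and 0.13).

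Homeostatic microglia genes moved with age in the same libraries. Of 21 genes 20 were tested, and 20, 19 and 20 were higher in aged rats in CA1, CA3 and DG. Those called were Ctss in CA1 (0.36, limma adjusted p = 0.048) and Cx3cr1 (0.31, adjusted p = 0.015), C1qa (0.33, adjusted p = 0.026) and C1qb (0.28, adjusted p = 0.040) in DG. Their mean log2 level was higher in aged than in young rats by 0.24 (SE 0.058) in CA1, 0.20 (SE 0.062) in CA3 and 0.23 (SE 0.069) in DG, and 23, 22 and 21 of the 24 aged rats exceeded the median of the young. With this level as a covariate, no member was called in CA1 or CA3 by limma and 1 of 7 was in DG, higher in aged rats. Of all genes, 0.0% were then called higher in CA1, 0.0% in CA3 and 3.55% in DG (498 of 14019, against 40 without the covariate). Retested as higher were 0, 1 and 1 of the 7 rows, against 0.541%, 0.172% and 2.35% of all genes. Against young rats alone, unimpaired rats then had 0, 0 and 1 of 7 called (0.0%, 0.0% and 3.2% of all genes), and impaired rats 0, 0 and 1 (0.0141%, 0.0% and 0.621%), the 1 in DG being Fcgr2b each time. The CA1 values then became 0.21 for Trem2, 0.16 for Tyrobp, 0.16 for Fcer1g and 0.38 for Fcgr2b. In DG they became 0.20, 0.03 and 0.10, with Fcgr2b at 0.47. The part of microglial RNA content in the members' change was not tested further.

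Markers of other cells were read in the same libraries. The border macrophage list had 7, 7 and 6 of 11 genes tested, none called by limma, with medians of 0.12, -0.24 and 0.05. Summed monocyte and neutrophil markers ran from 50.7 to 101 normalised reads in young, from 57.8 to 112 in unimpaired and from 55.3 to 115 in impaired CA1 libraries, with Elane and Ly6c at 0 in all of them. In CA3 these sums ran from 56.5 to 93.2, from 51.4 to 115 and from 82.5 to 379, and in DG from 51.2 to 71.6, from 59.9 to 86.2 and from 52.3 to 105. Csf3r, the granulocyte colony-stimulating factor receptor, changed with age by 0.27 in CA1 (unadjusted limma p = 0.040), 0.40 in CA3 (0.0015) and 0.27 in DG (0.029), not called. Summed T and NK cell markers ran from 15.0 to 147 in young, from 9.82 to 228 in unimpaired and from 18.6 to 171 in impaired CA1 libraries. In CA3 they reached at most 40.5, 119 and 41.8, and in DG 84.0, 122 and 63.4.

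Gfap, the intermediate filament of astrocytes, was higher in aged rats by 0.44 in CA1, 0.45 in CA3 and 0.41 in DG, retested in all 3 and called in DG (limma adjusted p = 0.0021), while the median of the 8 astrocyte genes was 0.06, 0.08 and 0.03. The 6 tested genes of blood had medians of 0.45, 0.20 and 0.39, with 6 of 6 higher in each subfield and none called. Of these, the haemoglobin chain Hba1 changed by 0.45, 0.25 and 0.37 in the Illumina table and by 1.07, 0.35 and 0.73 in the Ion Proton table. The part of these other cells in the members' changes was not tested.

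Some libraries were the highest of their subfield in several members. In the Illumina table these were CA1 of unimpaired rat R9869 (5 of 7 rows), DG of impaired rat R9781 (4 of 7) and CA3 of impaired rat R2238 (4 of 7). Those of R9869 and R9781 were among the 13 libraries nearer to another subfield. The library of R2238 is described further. CA3 of aged impaired rat R2238 had Fcgr3a at 215 normalised reads in the Illumina, 156 in the Ion Proton and 178 in the WT table, which is 6.02, 3.25 and 8.63 times the median of the 34 CA3 libraries. Fcgr1a stood at 94.7, 63.2 and 76.0 (3.43, 2.78 and 5.16 times) and Tyrobp at 314, 556 and 190 (1.90, 2.64 and 2.70 times). Fcer1g was at 1.78, 1.11 and 3.35 times its median. Trem2, in contrast, was at 1.03, 1.23 and 1.19 times its median. Summed homeostatic microglia markers (24159, against 10748 to 17011 in the other Illumina CA3 libraries) and summed monocyte and neutrophil markers (379, against 51.4 to 124) were the highest of the 34 in each table. Without this library the CA3 age change of Fcgr3a was 0.34.

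**Figure D5:**
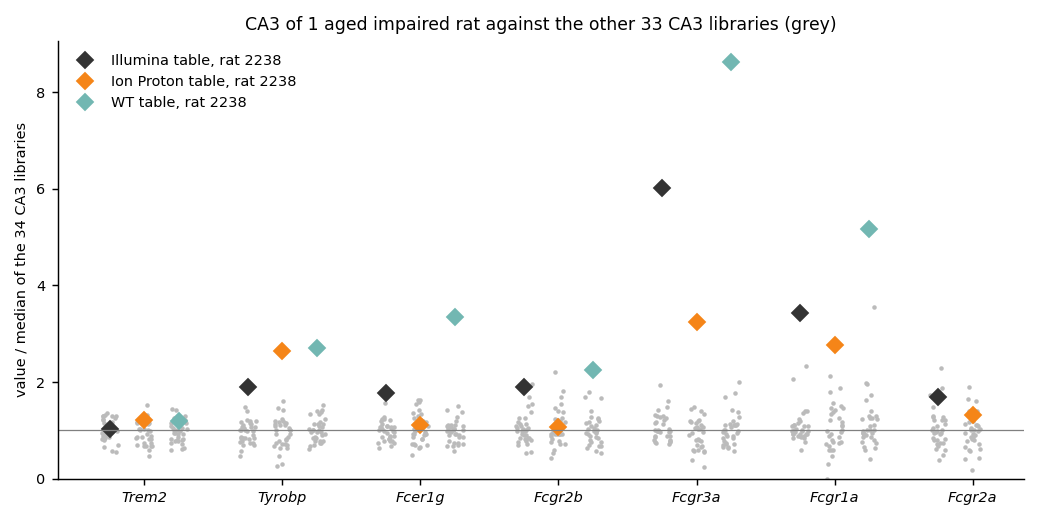
Value of each gene in CA3 of aged impaired rat R2238 (diamonds, coloured by table) as a multiple of the median of the 34 CA3 libraries (y axis, linear), with the other 33 libraries in grey. Fcgr3a (6.02, 3.25 and 8.63) and Fcgr1a (3.43, 2.78 and 5.16) lie far above 1 in all 3 tables, while Trem2 (1.03, 1.23 and 1.19) lies among the other libraries.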

How the data were processed

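Poly-A RNA of 3 hippocampal subfields from 34 rats was sequenced on an Illumina HiSeq (STAR, featureCounts) and, from RNA of the same rats, on an Ion Proton (TopHat2, Bowtie2, featureCounts), both against rn5. The submitters' processing notes name bcl2fastq 2.17, cutadapt 1.8.3, STAR 2.5, featureCounts 1.4.4 and DESeq2 1.16.1. The pipeline of the table named WT is not given in the sources used here, and sources differ on the TruSeq kit, so strand-specific counting is unknown. The authors deposited a normalised signal, namely read counts divided by a DESeq2 size factor per library. Tests stayed within a table, since size factors had been made separately. With a tolerance of 0.001, 100.0% of the values above 0 were whole reads after rescaling, which were used for edgeR and DESeq2 as alternatives. No column was left without a sample.

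Genes with a mean of at least 10 were tested with limma 3.58.1 under R 4.3.3, after adding 1 and taking log2, with a variance trend and Benjamini-Hochberg adjustment over all tested genes. On age in CA1, CA3 and DG, limma called 48, 0 and 42 genes, edgeR 4.0.16 called 24, 9 and 37 and DESeq2 1.42.0 called 61, 20 and 68. The script was tested on simulated data. The members and gene lists were chosen with earlier results of these data known. Genes named beside the members were, per list, the 3 with the smallest age p-value in DG, further pathway genes fixed by name, those most correlated with a member, and any called gene where a count was 5 or fewer. One gene under this rule is not reported here. Libraries of 1 rat come from 1 animal, so they are paired across subfields. The median correlation of their deviations in the Illumina table was 0.087 for CA1 and CA3, 0.19 for CA1 and DG and -0.032 for CA3 and DG. Rats came from 2 sites, which the labels do not assign. Number series stood in as the only grouping fitted, and the split by depth was not tested. P-values of tests within a subfield measure the spread between rats. Unless a replicate block is named, the subfield and interaction tests took the libraries of a rat as separate. Their p-values and intervals mix spread within and between rats. Read counts without molecular identifiers limit the precision of low genes such as Fcgr2a.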

Additional observations from a re-analysis of the deposited data

Results flagged for a closer look

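Young libraries were examined in 63 groups of 10, from the 7 Illumina, 8 Ion Proton and 6 WT rows tested, in 3 subfields. In 7 of the 63 groups the highest library was separated from the others by more than Dixon's 95% criterion allows. Chance alone would separate a library at either end in about 1 of 20 independent groups. These groups share rats across genes and tables, so they are not independent. Groups of 12 aged rats were not examined this way.

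Fcgr1a was highest in CA1 of young rat R2175, at 54.36 normalised reads in the Illumina table, with the next young library at 34.89. The same library stood at 29.8 in the WT table, where the next was at 19.13. It also held the highest summed leptomeningeal and border macrophage markers of the young CA1 libraries. Fcgr1a was again separated in CA3 of young rat R9876, at 64.19 in the Illumina table against a next value of 38.84, and at 52.39 in the WT table against 18.45. That library had the highest summed leptomeningeal markers of the young CA3 libraries as well. Whether those cells contributed to the Fcgr1a reads was not tested.

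Trem2 in CA1 of young rat R9780 stood at 296.4 in the Illumina table, with the next at 211.1, and at 242.3 in the Ion Proton table, with the next at 168.9. Fcgr2b was separated in the same library, at 150.5 in the Illumina table against a next value of 107.7.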

How the results depend on the processing

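Fcgr2a, at a median of 10 Illumina reads, had the fewest reads of the tested members. In all, 288 counts of members and 415 single values were recomputed under another setting, of which 235 counts and 336 values stayed within the limits set for no change. A count was within them if it stayed inside a set factor of the main count or if 0 stayed 0. A single value was within them if its sign and its side of the adjusted threshold held, whatever its size. Results without a call thus count as unchanged easily, and these totals do not measure how stable the calls were. A further 59 single values, all called in the main setting, fell below the threshold, 4 rose past it and 16 changed sign. Except where a value or the construction of an alternative shows it (fewer rats in a number series), the cause was not tested. The comparison of impaired with unimpaired rats and the interactions held 0 calls under all alternatives run. Settings on the receptor ratios were added after the data had been seen.

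With the homeostatic microglia level as covariate, called members in age became 0 in CA1 and 1 in DG, retested ones 0, 1 and 1 in CA1, CA3 and DG, and calls against young rats 0 in CA1 of unimpaired, 0 in CA1 of impaired and 1 in DG of impaired rats. The share of all genes called higher with age under this covariate was 3.55% in DG, against 0.285% without it. The share retested as higher in DG was 2.35%, against 0.94% without the covariate. In rats numbered below 9000 the age calls were 0 in CA1 and 1 in DG and the retested ones 0 in CA1 and 1 in CA3, where 13 of 14100 genes in CA1 and 20 of 13941 in DG were called at all. In rats numbered from 9000 up the age calls were 0 in CA1 and 0 in DG and the retested ones 0 in CA3 and 1 in DG, with 1 of 14226 and 6 of 14056 genes called in CA1 and DG. Of all genes, 85 of 13769 in CA1 and 35 of 13828 in CA3 were retested below 9000. From 9000 up, 120 of 13948 in CA3 and 88 of 13777 in DG were. Either series gave 0 calls in CA1 for unimpaired and for impaired rats, 0 in DG for unimpaired and 1 in DG for impaired rats. Of all genes, the series below 9000 called 1 and 9 in CA1 of unimpaired and impaired rats, and 1 and 11 in DG. From 9000 up these were 2 and 0 in CA1, and 0 and 9 in DG. With the series as a covariate, impaired rats had 3 calls in CA1 and unimpaired rats 2 in DG. That setting called 36 of 14191 and 41 of 14019 genes there, against 17 and 15 without the covariate.

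The Ion Proton table alone gave age calls of 0 in CA1 and 1 in DG and 0 for unimpaired and impaired rats in both CA1 and DG, and called 3 and 12 genes in all for age in CA1 and DG. The WT table gave 1 age call in CA1 (of 21 among 13680 genes) and 1 in DG (of 16 among 13542), 0 in CA1 of unimpaired (of 16) and of impaired rats (of 4) and 1 in DG of impaired rats (of 11). edgeR gave 0 calls in CA1 of unimpaired rats (of 2), 0 in CA1 of impaired rats (of 6) and 1 in DG of impaired rats (of 27), and DESeq2 1 in CA3 for age (of 20) and 1 in CA3 of impaired rats (of 12). DG of impaired rats had 1 call with no filter on low values (of 26 among 21949) and 1 with quantile normalisation (of 26 among 14019). For CA1 against DG, the Ion Proton table called 0 members (of 4612 genes in either direction), and edgeR 1 (of 4094) and DESeq2 1 (of 4223) in both tables. For CA3 against DG, rats from 9000 up called 2 members (of 5640 genes among 14215) and so did the Ion Proton table (2, of 4599). The count in both tables became 4 by DESeq2 (of 4488 genes). It was 1 below 9000 (of 3231), 1 from 9000 up (of 3073) and 1 without rats that had a library nearer to another subfield (of 3354). With the replicate block on the rat, the members in both tables were 3 in place of 2 (genes 4361 in place of 3957), and the pairing changed no other call.

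Leaving out 1 rat at a time gave age calls of 3 to 4 in CA1, 0 to 1 in CA3 and 2 to 3 in DG, and retested counts of 3 to 4, 1 to 4 and 3 to 5. For unimpaired rats the calls ran from 0 to 4 in CA1 and from 1 to 2 in DG, and for impaired rats from 0 to 4 and from 1 to 3. The CA1 change of Fcgr2a ran from -0.092 to 0.12 without 1 rat and was -0.048 with quantile normalisation, -0.058 by edgeR, -0.074 by DESeq2 and -0.0066 with the series as covariate. The CA3 change of Fcgr1a ran from -0.12 to 0.071, and was 0.13 below 9000, 0.076 without libraries nearer to another subfield and 0.042 in the WT table. With the microglia covariate, Fcgr1a was -0.11 in CA1 and -0.021 in DG and Tyrobp was -0.0054 in CA3. In the Ion Proton table Fcgr3a was -0.20 for age in CA1 and -0.11 for CA1 against DG, while the ratios of means were 1.27 and 1.14 (23 of 34 rats higher in CA1), and 3 aged CA1 libraries had 0 reads. The difference of Fcgr2a between CA3 and DG was 0.027 below 9000 and 0.0089 in the Ion Proton table. The ratio of Fcgr2b to Fcgr3a changed by -0.00079 in CA3 and -0.047 in DG in the Ion Proton table.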

Other observations

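The inhibitory and the high-affinity activating receptor could also be set against each other within a library. This ratio was chosen after the values of both genes had been seen, so it is described with no test. On the log2 scale its difference is the change of Fcgr2b less that of Fcgr1a. It restates changes given above and is no separate support for them. In the Illumina table the log2 ratio of Fcgr2b to Fcgr1a was higher in aged than in young rats by 0.58 (SE 0.16) in CA1, 0.65 (SE 0.21) in CA3 and 0.57 (SE 0.15) in DG. It lay above the young median in 24, 22 and 22 of 24 aged libraries. By the Ion Proton values the difference in DG was 0.45 (SE 0.18), and none is given for CA1 or CA3, where 1 aged library each had 0 reads of Fcgr1a. By the WT values the differences were 0.46, 0.51 and 0.75.

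The ratio of Fcgr2b to Fcgr3a, chosen in the same way, differed by 0.26 in CA1, 0.16 in CA3 and 0.38 in DG in the Illumina table. The WT values gave 0.11, 0.32 and 0.41. By the Ion Proton values it differed by -0.00079 in CA3 and -0.047 in DG, and none is given for CA1, where 3 aged libraries had 0 reads of Fcgr3a. Reads of these similar genes may be split between them.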
